A study of Mus musculus with 4 samples.

Results

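The 10 genes described here encode transcription factors of germinal centre (GC) identity or of B cell identity more widely: Bcl6, Bach2, Irf8, Pax5, Ebf1, Mef2b, Mef2c, Lmo2, Bcl11a and Foxp1. They were chosen by gene symbol from knowledge of the cell type, with earlier results of these data known. Each was found among the 20735 genes listed in the 4 libraries. All 10 also passed the filter on low values, which 10883 genes passed. A GC forms in the spleen or lymph node after immunization, when activated B cells divide, mutate their antibody genes and are selected for binding. Pax5 and Ebf1 keep the cell in the B lineage, Bcl6 represses genes of activation, arrest and differentiation while the GC lasts, and Bach2 holds back the plasma cell program. Irf8, Mef2b, Mef2c and the adaptor Lmo2 belong to the same regulatory network, and Bcl11a and Foxp1 are needed for B cell development.

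Messenger RNA was measured by RNA-seq in Nsd2 ko GC B cells (2 libraries, ko 1 and ko 2) and in Nsd2 wt GC B cells (2 libraries, wt 1 and wt 2). Cells of both groups were sorted from spleens of C57BL/6 mice aged 8 weeks that had been immunized with sheep red blood cells (SRBC). Nsd2 encodes an enzyme that methylates lysine 36 of histone H3. Nothing in the sources used here gives the ko allele, any Cre line, the sorting gate or the number of mice per library. The comparison asks how the mRNA of these factors differs between GC B cells without and with intact Nsd2.

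Nsd2, listed under its older symbol Whsc1, was at 31.4 and 34.1 FPKM in the ko libraries and at 76.9 and 81.4 FPKM in the wt libraries, so ko libraries still held part of its transcript. FPKM is the number of fragments per length of transcript and per size of library, so levels of different genes can be set side by side. Relative to wt 1, the depth read from the smallest values was 75.5% in ko 1, 77.3% in ko 2 and 94.3% in wt 2. Both ko libraries were thus sequenced less deeply than either wt library. The 10 markers of GC B cells summed to 1239 and 1249 FPKM in the ko libraries and to 1257 and 1253 FPKM in the wt libraries. None of these markers was below 43.3 FPKM in any library. Whether libraries of a group came from separate mice is not stated, so p-values measure only the spread between these libraries, which may be technical.

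Most of the factors differed little between the genotypes. Lmo2 and Mef2b fell in ko cells, to 0.774 and 0.913 times their wt level, and Bcl11a rose, to 1.22 times its wt level. The other 7, with Bcl6, Bach2, Irf8 and Pax5 among them, did not pass the threshold. In sorted bulk cells such as these, fewer cells of a type and less RNA per cell cannot be told apart. Changes were tested with limma on log2(FPKM + 1) across all 10883 genes, with a call at a Benjamini-Hochberg adjusted p below 0.05. By that rule 12.9% of all genes tested were called, 6.66% up and 6.20% down, against 1 factor up and 2 down of 10. The median log2 fold change of the 10 factors was 0.01, and that of all genes tested was also 0.01. The median size of the change, without its sign, was 0.065 for the factors and 0.1 for all genes. Libraries of ko and wt did not overlap for 6 of the 10 factors, 3 higher and 3 lower in ko, beside 61.2% of all genes tested (32.4% higher and 28.8% lower).

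The levels covered a wide range and their order was nearly the same in both genotypes. Irf8 was the highest of the 10, at 221.0 and 218.9 FPKM in the ko libraries and 216.9 and 220.7 FPKM in the wt libraries. It stood above 97.4% of all genes tested. Mef2c, Pax5, Mef2b, Bach2, Bcl6, Foxp1 and Bcl11a followed in that order in both groups, and the libraries of neighbours did not overlap within a group. The gap was narrow between Mef2c and Pax5 in ko cells, where the lower Mef2c library was at 155.1 FPKM and the higher Pax5 library at 154.7 FPKM. The last pair changed places. Ebf1 averaged 28.4 ± 1.34 FPKM and Lmo2 25.0 ± 0.29 FPKM in ko cells, whereas in wt cells Ebf1 averaged 27.6 ± 0.73 FPKM and Lmo2 32.3 ± 0.27 FPKM (SD, n = 2 each). Summed over the 10 factors, the level was 1032 and 1021 FPKM in the ko libraries and 1017 and 1024 FPKM in the wt libraries, so the groups overlapped in the sum.

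**Figure D1:**
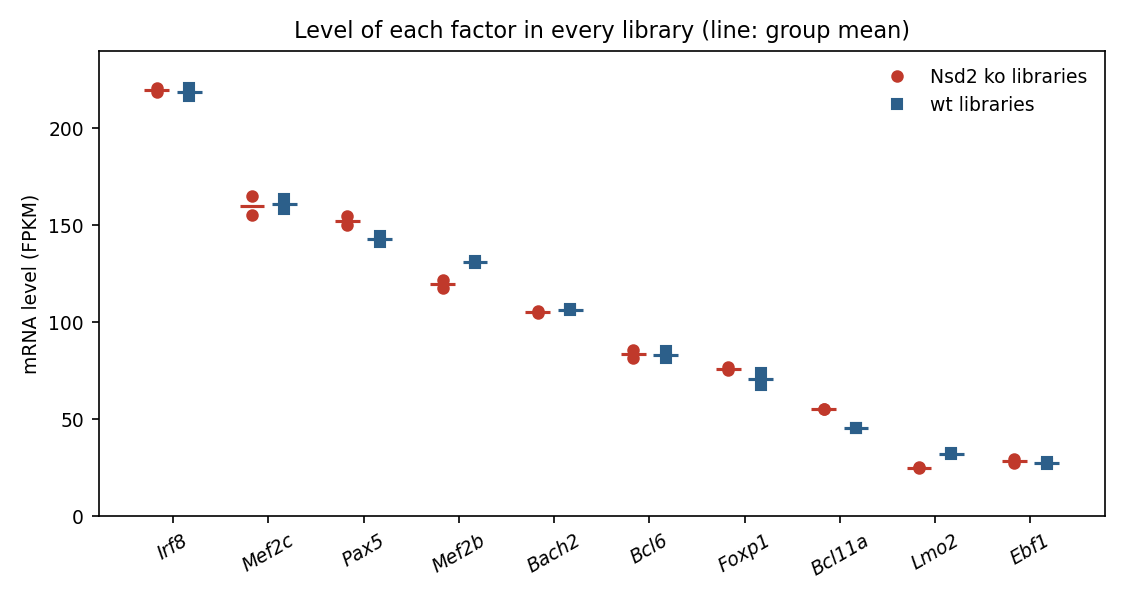
Level of each factor in FPKM (vertical axis, linear from 0) in every library, with red circles for the 2 Nsd2 ko libraries, blue squares for the 2 wt libraries and a line at each group mean. Libraries of the 2 groups do not overlap for Lmo2, Mef2b, Bcl11a, Pax5, Foxp1 and Bach2, the last by a narrow gap. They overlap for Irf8, Mef2c, Bcl6 and Ebf1.

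Promoter sequence was available from RefSeq (GRCm38.p6) for 9 of the 10 factors, in 16 windows of 300 bases that run from 250 bases before to 50 bases after an annotated start. These windows were searched on both strands for 7 short motifs. The motif TTCNNNGAA, which BCL6 and STAT proteins both bind, was found in 6 of the 16 windows and in 5 of the 9 genes (Bcl6, Bach2, Irf8, Bcl11a and Mef2c), and in 8.3% of all 32851 windows. The ETS-IRF motif GGAANNGAA, the kind of site that IRF8 binds together with an ETS factor, was found in 4 windows, those of Bcl6, Bach2, Bcl11a and Mef2c, and in 8.2% of all windows. The interferon response motif GAAANNGAA occurred in 1 window, of Ebf1, against 8.6% of all, and the EBF1 motif CCCNNGGG in 2, of Foxp1 and Irf8, against 13.7%. No window of the factors held the MEF2 motif TAAAAATA, the forkhead motif GTAAACA or the BACH and AP-1 motif TGAGTCA, which 2.7%, 3.6% and 5.2% of all windows held. The ratio of observed to expected CpG was at least 0.6 in 9 of the 16 windows and in 35.8% of all windows. The 250 bases upstream of the start are given for 4 promoters: the Bcl6 start with the most TTCNNNGAA matches, Irf8 with 2 such matches, Bcl11a as the factor that rose, and Mef2b as a factor that fell and whose window held no match. Each is printed 5′ to 3′ on the strand of its gene, and capitals mark the bases that match TTCNNNGAA or GGAANNGAA. Like the Bcl6 start, the Bcl11a and Mef2b starts used here lie inside the gene positions given below, downstream of the first base of the gene. Of these promoters only that of Irf8 is at the first base of its gene. A match describes the letters and does not show that a factor binds there in these cells.
Bcl6, internal start, chr16:23981284-23981533, minus strand: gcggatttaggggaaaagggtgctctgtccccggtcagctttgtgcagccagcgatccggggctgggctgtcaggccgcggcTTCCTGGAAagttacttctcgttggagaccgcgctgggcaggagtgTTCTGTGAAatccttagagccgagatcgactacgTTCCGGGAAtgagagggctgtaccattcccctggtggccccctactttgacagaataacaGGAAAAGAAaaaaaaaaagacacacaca
Irf8, chr8:120736108-120736357, plus strand: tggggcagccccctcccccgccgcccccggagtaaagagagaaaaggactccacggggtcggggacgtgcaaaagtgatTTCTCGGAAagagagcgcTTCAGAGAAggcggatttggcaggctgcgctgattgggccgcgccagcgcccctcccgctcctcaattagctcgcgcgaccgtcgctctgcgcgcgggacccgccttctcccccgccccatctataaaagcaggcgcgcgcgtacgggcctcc
Bcl11a, chr11:24080445-24080694, plus strand: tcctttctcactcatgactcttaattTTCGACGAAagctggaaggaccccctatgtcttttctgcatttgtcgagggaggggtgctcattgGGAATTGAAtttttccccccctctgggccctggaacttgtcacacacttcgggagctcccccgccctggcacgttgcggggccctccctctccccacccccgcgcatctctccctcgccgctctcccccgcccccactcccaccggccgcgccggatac
Mef2b, chr8:70152511-70152760, plus strand: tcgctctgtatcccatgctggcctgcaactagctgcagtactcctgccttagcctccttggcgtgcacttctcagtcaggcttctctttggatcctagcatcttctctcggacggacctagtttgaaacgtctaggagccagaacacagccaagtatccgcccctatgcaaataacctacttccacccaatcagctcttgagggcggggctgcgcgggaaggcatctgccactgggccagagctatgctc

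The Bcl6 stretch held 3 matches to TTCNNNGAA, at 168, 122 and 88 bases before the start, and 1 to GGAANNGAA at 28 bases before it. The Irf8 stretch held its 2 matches 171 and 153 bases before the start. In Bcl11a the TTCNNNGAA match lay 224 and the GGAANNGAA match 159 bases before the start.

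Lmo2 had the largest change of the 10 factors. Its protein has LIM domains and no DNA-binding domain of its own, and it bridges DNA-binding partners through LDB1. Lmo2 (ENSMUSG00000032698, GRCm38 chromosome 2, 103957986 to 103981878, plus strand) was at 24.8 and 25.2 FPKM in the ko libraries and at 32.5 and 32.1 FPKM in the wt libraries. Both ko libraries lay well below both wt libraries. The log2 fold change was -0.36 ± 0.04 (SE), with a 95% confidence interval of -0.45 to -0.26 (Benjamini-Hochberg adjusted p = 0.00808 in limma, with 2 libraries per genotype). Leaving out each library in turn kept the call, with adjusted p from 0.0273 to 0.0344, and it was lost with no filter on low values (adjusted p = 0.0744). Without that filter 0.0675% of 20735 genes were called, 0.0434% up and 0.0241% down, and none of the factors.

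Among the genes of the LMO2 complex Tcf12 fell and Ldb1 rose, and others were not called. Tcf12, which encodes an E protein that binds DNA in such complexes, fell to 11.3 and 11.3 FPKM in the ko libraries, against 17.7 and 18.4 FPKM in the wt libraries. This was the largest fall among the partner genes, with a log2 fold change of -0.63 ± 0.05 (SE, limma adjusted p = 0.00329), and it was called whichever library was left out. Ldb1, the scaffold that dimerizes to hold the complex together, rose to 53.5 and 55.3 FPKM in the ko libraries, against 44.1 and 46.1 FPKM in the wt libraries. Its log2 fold change was 0.27 ± 0.04 (SE, limma adjusted p = 0.0146), and 2 of the 4 fits with 1 library left out kept the call. The E protein gene Tcf3, named after its values were seen, was at 138.6 and 138.2 FPKM in the ko libraries and 125.6 and 132.1 FPKM in the wt libraries (limma adjusted p = 0.0863). The partner gene Lyl1, named likewise, was level at 51.5 and 54.9 FPKM in the ko libraries and 53.2 and 52.1 FPKM in the wt libraries (limma adjusted p = 0.841). Lmo4, a LIM-only paralog also named after its values were seen, was at 74.8 and 76.1 FPKM in the ko libraries and 80.3 and 82.4 FPKM in the wt libraries (limma adjusted p = 0.0723). It stood at more than the level of Lmo2 in every library.

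The 3 tested genes whose pattern over the 4 libraries lay closest to that of Lmo2, by Euclidean distance of centred log2(FPKM + 1) values, were Smim8, Prkacb and Itfg1. Prkacb, which encodes a catalytic subunit of protein kinase A, was at 41.5 and 42.5 FPKM in the ko libraries and 54.98 and 54.72 FPKM in the wt libraries. Smim8 was at 9.54 and 9.70 FPKM in the ko libraries and 12.5 and 12.6 FPKM in the wt libraries, and Itfg1 at 11.2 and 11.2 FPKM in the ko libraries and 14.5 and 14.2 FPKM in the wt libraries. The distances were 0.0237, 0.0228 and 0.0295 for Prkacb, Smim8 and Itfg1. With 4 libraries in 2 groups, closeness of this kind mainly says that the genes differed between the genotypes by a like amount.

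The MEF2 factors, MADS-box proteins that act below B cell receptor and calcium signals, did not give the same result. Mef2b (ENSMUSG00000079033, chromosome 8, 70139711 to 70167488, plus strand) was at 117.7 and 122.0 FPKM in the ko libraries and at 131.8 and 130.8 FPKM in the wt libraries. The ko libraries were lower without overlap, and the log2 fold change was -0.13 ± 0.03 (SE, 95% confidence interval -0.20 to -0.06, limma Benjamini-Hochberg adjusted p = 0.0391). This call was the least stable of the 3. It was lost when any one of the 4 libraries was left out, with adjusted p from 0.0675 to 0.139, with no filter on low values (0.119) and without a trend of the spread on expression (0.155). Mef2b overlaps Borcs8 on the same strand, and reads of both genes may not have been separated. Borcs8 was at 39.2 and 40.1 FPKM in the ko libraries and 44.6 and 41.1 FPKM in the wt libraries (limma adjusted p = 0.178).

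Mef2c (ENSMUSG00000005583, chromosome 13, 83504034 to 83667080, plus strand) was at 165.2 and 155.1 FPKM in the ko libraries and at 158.6 and 163.8 FPKM in the wt libraries. The groups overlapped, and the log2 fold change was -0.01, with a 95% confidence interval of -0.10 to 0.08 (limma adjusted p = 0.882). The ratio of Mef2b to Mef2c was 0.712 and 0.787 in the ko libraries and 0.831 and 0.799 in the wt libraries. Cabin1, which encodes a corepressor of MEF2 proteins, rose to 20.4 and 20.9 FPKM in the ko libraries, against 16.9 and 17.2 FPKM in the wt libraries (log2 fold change 0.27 ± 0.05 SE, limma adjusted p = 0.0212). None of the 4 fits with 1 library left out called Cabin1.

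Bcl6, the repressor without which no GC forms, showed no difference that could be told from the spread. Bcl6 (ENSMUSG00000022508, chromosome 16, 23965052 to 23988852, minus strand) was at 81.8 and 85.9 FPKM in the ko libraries and at 81.4 and 85.4 FPKM in the wt libraries. The libraries of a group differed from each other by more than the group means did. The 95% confidence interval of the ratio of ko to wt was 0.941 to 1.07 (limma adjusted p = 0.906).

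BCL6 represses through corepressor complexes that carry histone deacetylases and Polycomb proteins. Of 24 genes for such corepressors 23 were tested, 1 rose, 1 fell and 21 were not called, with a median log2 fold change of 0.02. Among all genes tested 6.66% were called up and 6.20% down. Hdac7, a class II histone deacetylase, rose to 57.9 and 61.9 FPKM in the ko libraries, against 51.6 and 52.5 FPKM in the wt libraries (log2 fold change 0.20 ± 0.04 SE, limma adjusted p = 0.0323). Hdac4, of the same class, fell to 3.84 and 3.90 FPKM in the ko libraries, against 5.05 and 5.24 FPKM in the wt libraries (log2 fold change -0.33 ± 0.08 SE, limma adjusted p = 0.0419). With trends on GC content and span removed 3 corepressor genes were called up and 0 down, beside 6.28% and 5.17% of all genes. With the span trend alone removed 5 were called up and 0 down, beside 6.65% and 5.58% of all genes. The fall of Hdac4 was thus called in neither. With 1 library left out, Hdac7 was called in 1 of the 4 fits and Hdac4 in none.

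Genes reported as repressed by BCL6 were mostly not called: 1 rose and 1 fell of 17 tested, beside 6.66% up and 6.20% down among all genes tested. Their median log2 fold change was 0.11, above the 0.01 of all genes tested. Ccnd2, a D-type cyclin, rose to 6.90 and 6.72 FPKM in the ko libraries, against 5.40 and 5.18 FPKM in the wt libraries (limma adjusted p = 0.0403). Cd44, an adhesion receptor of activated and memory lymphocytes, fell to 25.9 and 23.4 FPKM in the ko libraries, against 29.3 and 29.2 FPKM in the wt libraries (limma adjusted p = 0.0412). The calls went in opposite directions, and with 1 library left out Ccnd2 was called in 0 and Cd44 in 1 of the 4 fits. With the replicate block neither was called. With trends on GC content and span removed 2 genes of this list were called up and 0 down, so the fall of Cd44 was not called. Among all genes tested 6.28% were then called up and 5.17% down.

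The opposing plasma cell program was close to even. Of 9 tested plasma cell genes 1 rose and none fell, with a median log2 fold change of -0.001, beside 6.66% up and 6.20% down among all genes. The gene that rose was Fkbp11, which encodes a folding enzyme of the secretory pathway, at 3.05 and 2.86 FPKM in the ko libraries and 1.88 and 1.38 FPKM in the wt libraries (limma adjusted p = 0.0317). It was called in 1 of the 4 fits with 1 library left out, and not with trends on GC content and span removed (limma adjusted p = 0.0519). The regulators themselves, named after their values were seen, were not called. Prdm1, which encodes BLIMP1, was at 3.27 and 3.42 FPKM in the ko libraries and 2.90 and 2.94 FPKM in the wt libraries (limma adjusted p = 0.289). Irf4 was at 15.0 and 14.5 FPKM in the ko libraries and 15.9 and 16.4 FPKM in the wt libraries (limma adjusted p = 0.172). The ratio of Bcl6 to Irf4 was 5.46 and 5.91 in the ko libraries and 5.13 and 5.21 in the wt libraries, and that of Bcl6 to Prdm1 was 25.0 and 25.1 in the ko libraries and 28.1 and 29.0 in the wt libraries. These ratios, which were not tested, lay higher in ko for Irf4 as the denominator and lower for Prdm1.

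Bach2, a basic leucine zipper repressor of Prdm1, was nearly level. Bach2 (ENSMUSG00000040270, chromosome 4, 32238804 to 32586108, plus strand) was at 105.0 and 106.1 FPKM in the ko libraries and at 106.7 and 106.3 FPKM in the wt libraries. The ko libraries lay just below, and the log2 fold change was -0.01 with a 95% confidence interval of -0.08 to 0.05 (limma adjusted p = 0.782). Bach2os, an antisense gene within it, was at 7.86 and 7.81 FPKM in the ko libraries and 7.08 and 7.92 FPKM in the wt libraries, and reads of both may not have been separated. The ratio of Bach2 to Prdm1 was 32.1 and 31.0 in the ko libraries and 36.8 and 36.1 in the wt libraries. BACH2 binds DNA as a dimer with small MAF proteins, and Mafg, which encodes one of them, rose to 7.32 and 7.40 FPKM in the ko libraries, against 5.69 and 5.41 FPKM in the wt libraries (log2 fold change 0.35 ± 0.07 SE, limma adjusted p = 0.0292). No fit with 1 library left out called Mafg. The paralog Bach1, named after its values were seen, was at 2.07 and 2.44 FPKM in the ko libraries and 2.51 and 2.45 FPKM in the wt libraries.

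Irf8, an interferon regulatory factor that works with ETS proteins in B cells, was level as well. Its libraries, given above, overlapped, and the log2 fold change was 0.01 with a 95% confidence interval of -0.05 to 0.07 (ENSMUSG00000041515, chromosome 8, 120736358 to 120756694, plus strand; limma adjusted p = 0.861). Gm20388 overlaps Irf8 on the same strand and was at 6.15 and 5.65 FPKM in the ko libraries and 7.30 and 6.60 FPKM in the wt libraries (limma adjusted p = 0.147). Spi1 and Spib encode ETS factors that pair with IRF8 and IRF4, and both were named after their values were seen. Spi1 was at 58.8 and 63.2 FPKM in the ko libraries and 57.1 and 61.6 FPKM in the wt libraries, and was not called (limma adjusted p = 0.644). Spib fell to 337.6 and 339.8 FPKM in the ko libraries, against 360.0 and 362.7 FPKM in the wt libraries (log2 fold change -0.09 ± 0.02 SE, limma adjusted p = 0.0437). No fit with 1 library left out called Spib.

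Of 12 tested paralogs of the 10 factors 2 rose and none fell, beside 6.66% up and 6.20% down among all genes tested. Irf7, an interferon-induced member of the IRF family, rose to 13.3 and 14.8 FPKM in the ko libraries, against 10.7 and 11.4 FPKM in the wt libraries (log2 fold change 0.32 ± 0.07 SE, limma adjusted p = 0.0346). Irf9, named after its values were seen, was at 18.0 and 16.1 FPKM in the ko libraries and 13.0 and 14.7 FPKM in the wt libraries, and was not called (limma adjusted p = 0.0662). Foxp4, a forkhead paralog of Foxp1, rose to 15.8 and 15.8 FPKM in the ko libraries, against 13.6 and 13.3 FPKM in the wt libraries (log2 fold change 0.22 ± 0.05 SE, limma adjusted p = 0.0421). Neither Irf7 nor Foxp4 was called when 1 library was left out, and neither was called once trends on GC content and genomic span had been removed.

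Pax5, the paired-domain factor of B lineage commitment, was somewhat higher in ko but did not pass. Pax5 (ENSMUSG00000014030, chromosome 4, 44524757 to 44710487, minus strand) was at 154.7 and 149.9 FPKM in the ko libraries and at 141.6 and 144.4 FPKM in the wt libraries. The ko libraries lay above both wt libraries, and the log2 fold change was 0.09 ± 0.03 (SE, 95% confidence interval 0.02 to 0.16, limma Benjamini-Hochberg adjusted p = 0.091). The transcript 5730488B01Rik, which overlaps Pax5 on the opposite strand, was at 8.52 and 9.38 FPKM in the ko libraries and 7.71 and 7.06 FPKM in the wt libraries (limma adjusted p = 0.0868), and reads of both may not have been separated. Ebf1, early B cell factor 1 (ENSMUSG00000057098, chromosome 11, 44617317 to 45008091, plus strand), was at 29.4 and 27.5 FPKM in the ko libraries and at 28.1 and 27.1 FPKM in the wt libraries. The groups overlapped, with a log2 fold change of 0.04 and a 95% confidence interval of -0.08 to 0.16 (limma adjusted p = 0.621).

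Tle3, which encodes a Groucho corepressor that PAX5 recruits, had the largest rise among the partner genes. It was at 17.02 and 16.5 FPKM in the ko libraries and at 10.1 and 10.6 FPKM in the wt libraries. The groups were far apart relative to their spread, and the log2 fold change was 0.65 ± 0.06 (SE, limma Benjamini-Hochberg adjusted p = 0.00432). The call held with each library left out in turn. The Groucho genes Tle1 and Tle4, on the same list and named after their values were seen, did not rise. Both lay lower in ko without overlap and were not called (limma adjusted p = 0.29 for Tle1 and 0.39 for Tle4). Over all partner genes of the factors other than corepressors of BCL6, 4 rose and 2 fell of 13 tested, with a median log2 fold change of 0.04. Among all genes tested 6.66% were called up and 6.20% down.

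**Figure D2:**
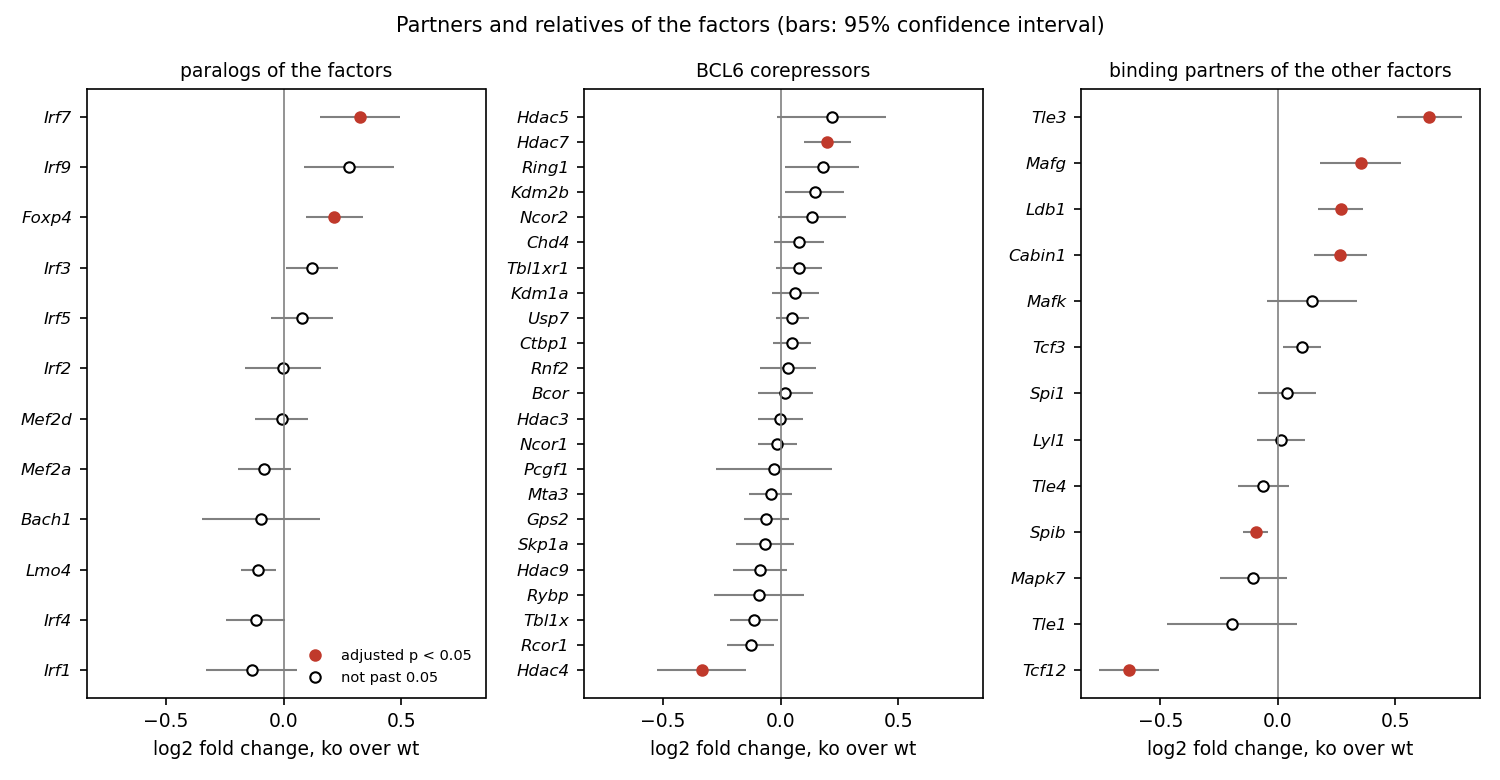
Log2 fold change of ko over wt (horizontal axis) with 95% confidence interval for each tested paralog of the factors (left), corepressor of BCL6 (middle) and binding partner of the other factors (right), filled red where the limma adjusted p was below 0.05. Tle3 at 0.65 and Tcf12 at -0.63 lie farthest from 0, and most of the corepressors of BCL6 lie close to it.

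Genes reported as activated by PAX5 or EBF1 changed in both directions. Of 19 tested, 7 rose, 4 fell and 8 were not called, with a median log2 fold change of 0.07, beside 6.66% up and 6.20% down among all genes tested. With 1 library left out 3 rose and 0 to 1 fell, and without a trend of the spread on expression none was called. Cr2, the complement receptor CD21, rose to 97.4 and 98.5 FPKM in the ko libraries, against 82.6 and 81.1 FPKM in the wt libraries (log2 fold change 0.26 ± 0.03 SE, limma adjusted p = 0.00827). Fcer2a, the low-affinity IgE receptor CD23, rose to 81.3 and 81.4 FPKM in the ko libraries, against 68.1 and 68.4 FPKM in the wt libraries (limma adjusted p = 0.00911). Cd72, an inhibitory coreceptor, rose to 128.6 and 137.8 FPKM in the ko libraries, against 107.1 and 111.3 FPKM in the wt libraries (limma adjusted p = 0.0141). These 3 were called in each fit with 1 library left out. Nfatc1, which encodes a calcium-regulated transcription factor, rose to 64.5 and 64.2 FPKM in the ko libraries, against 56.4 and 55.6 FPKM in the wt libraries (limma adjusted p = 0.0176). Vpreb3, a protein of early B cell receptor assembly, fell to 102.5 and 102.6 FPKM in the ko libraries, against 118.1 and 114.9 FPKM in the wt libraries (log2 fold change -0.18 ± 0.03 SE, limma adjusted p = 0.0173). With 1 library left out Nfatc1 was called in 0 and Vpreb3 in 1 of the 4 fits. Also called, and named after their values were seen, were Cd22 and Blk, which rose, and Cd79b, Pou2af1 and Spib, which fell, all by 0.14 or less on the log2 scale. None of these 5 was called in any fit with 1 library left out.

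Cr2 and Fcer2a are also on the list of naive and follicular B cell markers. Of 8 such markers 5 rose, Cr2 and Fcer2a among them, and none fell, beside 6.66% up and 6.20% down among all genes tested. Their sum with Cr2 and Fcer2a included was 288.1 and 285.1 FPKM in the ko libraries against 242.4 and 238.8 FPKM in the wt libraries. Not called were Ccr7, S1pr1 and Klf2, named after their values were seen. Ccr7 lay higher in ko without overlap, and the groups overlapped for Klf2. S1pr1 lay lower, at 7.28 and 7.41 FPKM in the ko libraries and 7.97 and 8.61 FPKM in the wt libraries (limma adjusted p = 0.187). Ighd, the constant gene of IgD, which resting B cells carry, was at 38.8 and 36.8 FPKM in the ko libraries and 29.0 and 29.8 FPKM in the wt libraries (limma adjusted p = 0.0103). The part of these markers in the changes of the factors was not tested. Of the genes reported as repressed by PAX5, 3 rose and 1 fell of 8 tested, beside the same shares of all genes. Their median log2 fold change was -0.01. Grap2, an adaptor of T cell receptor signalling, rose to 5.64 and 5.23 FPKM in the ko libraries, against 3.37 and 3.33 FPKM in the wt libraries (log2 fold change 0.56 ± 0.08 SE, limma adjusted p = 0.0142). Flt3, a receptor kinase of progenitors and dendritic cells, rose to 11.0 and 10.3 FPKM in the ko libraries, against 8.13 and 8.64 FPKM in the wt libraries (limma adjusted p = 0.0339). Sdc4, a syndecan, rose to 7.69 and 7.06 FPKM in ko (limma adjusted p = 0.0477) against 5.93 and 5.36 FPKM in wt, and the adaptor gene Nedd9 fell to 32.0 and 30.7 FPKM in ko (limma adjusted p = 0.0416) against 35.2 and 35.9 FPKM in wt. With 1 library left out Grap2 was called in 2 of the 4 fits and Flt3, Sdc4 and Nedd9 in none. With trends on GC content and span removed the log2 fold change of Nedd9 was -0.03 (limma adjusted p = 0.617).

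Markers of other cell types were low apart from Lck, Cd2, Flt3 and Cd68. The 8 T cell markers summed to 87.7 and 90.2 FPKM in the ko libraries and 83.9 and 83.1 FPKM in the wt libraries, of which Lck and Cd2 made up nearly all, and Cd5 was at 0.38 to 0.56 FPKM throughout. Those of monocytes and macrophages, also 8, added up to 9.7 and 9.9 FPKM in the ko libraries and 6.7 and 5.8 FPKM in the wt libraries. Lyz2, lysozyme, rose to 1.59 and 1.64 FPKM in the ko libraries, against 0.33 and 0.60 FPKM in the wt libraries (limma adjusted p = 0.0179). The 8 dendritic cell markers summed to 11.7 and 11.1 FPKM in the ko libraries and 8.9 and 9.3 FPKM in the wt libraries, nearly all of it Flt3. Of 7 tested immediate early and heat shock genes, which can respond to handling of cells, 4 rose and none fell, beside 6.66% up and 6.20% down among all genes. All 8 such genes summed to 119.3 and 120.3 FPKM in the ko libraries and 106.1 and 106.9 FPKM in the wt libraries. The largest of these rises, named after their values were seen, were in the heat shock genes Hspa1b and Hspa1a, whose near-identical sequences leave the split of reads between them uncertain. Hspa1b was at 6.21 and 6.78 FPKM in the ko libraries and 1.84 and 2.29 FPKM in the wt libraries, 3.14 times as high in ko (limma adjusted p = 0.00305). Hspa1a was at 2.56 and 2.45 FPKM in the ko libraries and 0.79 and 1.13 FPKM in the wt libraries, 2.62 times as high in ko (limma adjusted p = 0.0146). The part of these genes in the changes of the factors was not tested.

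Bcl11a, a zinc-finger factor needed for B cell development and known in erythroid cells as a repressor of fetal globin genes, was the one factor that rose. Bcl11a (ENSMUSG00000000861, chromosome 11, 24078056 to 24174123, plus strand) was at 55.3 and 55.4 FPKM in the ko libraries and at 45.8 and 45.3 FPKM in the wt libraries. Libraries of a group agreed closely and the groups lay apart. The log2 fold change was 0.28 ± 0.03 (SE, 95% confidence interval 0.20 to 0.36, limma Benjamini-Hochberg adjusted p = 0.00946). The call held with each library left out in turn, with adjusted p from 0.0314 to 0.0385, and was lost with no filter on low values (adjusted p = 0.0744). Foxp1, a forkhead factor of B cell development and of resting mature B cells (ENSMUSG00000030067, chromosome 6, 98925338 to 99522721, minus strand), was at 76.8 and 75.2 FPKM in the ko libraries and at 73.7 and 67.8 FPKM in the wt libraries. The ko libraries lay above both wt libraries, but wt 1 and wt 2 differed by more than ko 2 and wt 1 did. The log2 fold change was 0.10 ± 0.05 (SE, 95% confidence interval -0.01 to 0.21, limma adjusted p = 0.172).

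The factors differ greatly in the length of the gene on the chromosome, and across all genes this length moved with the fold change. Genes spanning up to 10 kb had a median log2 fold change of 0.045, with 293 called up and 127 down of 3354. Genes spanning more than 160 kb had a median of -0.129, with 9 called up and 87 down of 431. Of the 10 factors 5, namely Mef2c, Pax5, Bach2, Ebf1 and Foxp1, fell in this last class, with spans of 163.0, 185.7, 347.3, 390.8 and 597.4 kb. Their log2 fold changes lay 0.116 to 0.232 above the median of the class. Foxp1 ranked 50 and Pax5 56 of the 431 genes from the highest fold change down, Ebf1 88, Mef2c 124 and Bach2 127. Bcl11a, at 96.1 kb, ranked 104 of the 2998 genes that span 30 to 100 kb. At the other end Lmo2, at 23.9 kb, ranked 3399 and Mef2b, at 27.8 kb, ranked 2963 of the 3481 genes that span 10 to 30 kb.

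**Figure D3:**
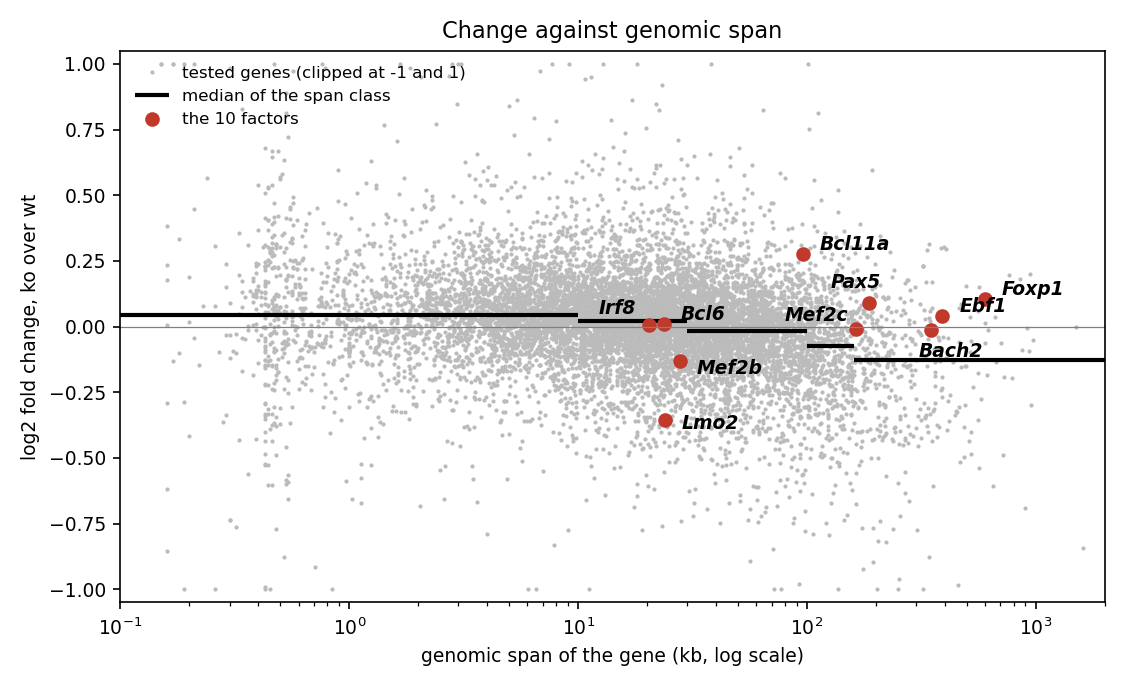
Log2 fold change of ko over wt (vertical axis) against genomic span in kb (horizontal axis, log scale) for all tested genes in grey, clipped at -1 and 1, with the 10 factors in red and black bars at the median of each span class. The class medians run from 0.045 for genes of up to 10 kb down to -0.129 above 160 kb, and the 5 longest factors all lie above the last bar.

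The GC content of the transcript moved with the fold change too, from a median log2 fold change of -0.044 at 40% to 45% GC to 0.082 above 60%. Removal of smooth trends on GC content and span across all genes changed the picture for the factors. It left 11.4% of all genes called, 6.28% up and 5.17% down, but called 8 of the 10 factors, 6 up and 2 down. Bcl11a then stood at a log2 fold change of 0.39, Foxp1 at 0.37, Ebf1 at 0.27, Pax5 at 0.19, Bach2 at 0.16 and Mef2c at 0.14, with limma adjusted p from 0.00594 for Bcl11a to 0.0476 for Mef2c. Lmo2 stood at -0.42 (limma adjusted p = 0.00695) and Mef2b at -0.21 (limma adjusted p = 0.0158). Only Bcl6 at -0.01 and Irf8 at -0.03 were then not called (limma adjusted p = 0.845 and 0.412).

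Each trend was also removed alone, a choice made after the data were seen. With the span trend removed alone 5 factors were called up and 2 down, the 8 named above less Mef2c (limma adjusted p = 0.0921), beside 12.2% of all genes (6.65% up and 5.58% down). With the GC trend removed alone the calls were those of the values as deposited, 1 up and 2 down, beside 12.0% of all genes (6.48% up and 5.53% down). Of the 6 factors raised with both trends removed 5 are the long genes, and their calls are relative to other long genes. As deposited, their levels in ko were between 0.991 and 1.07 times those in wt. Whether the trends come from the libraries or from the cells was not tested. For Lmo2, Mef2b and Bcl11a the direction was the same under all 14 alternatives run.

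**Figure D4:**
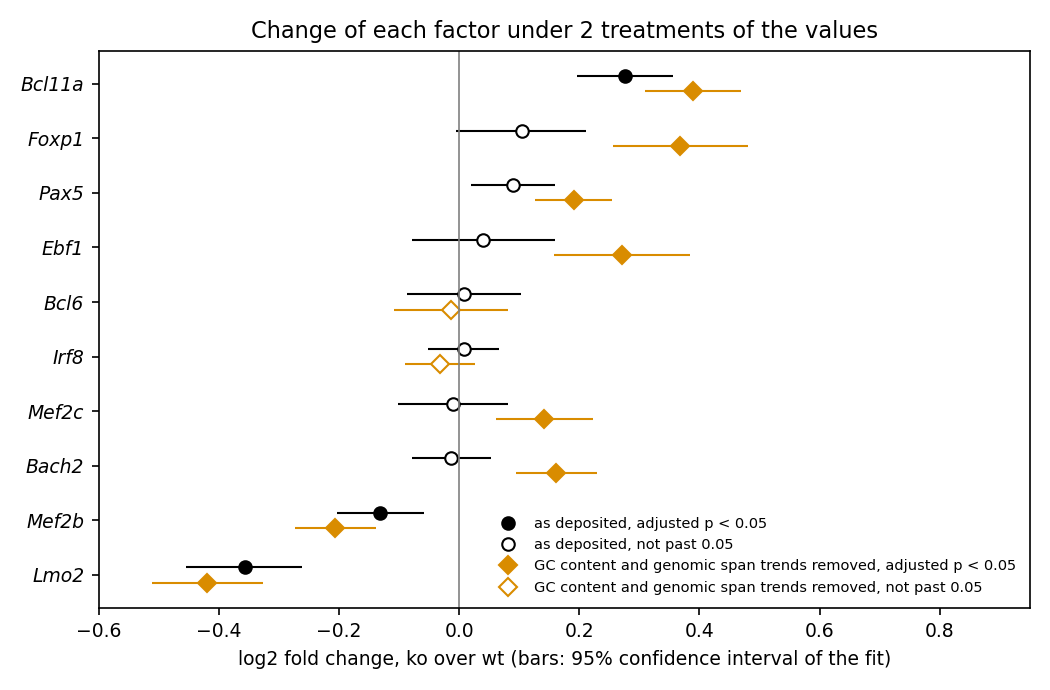
Log2 fold change of ko over wt with 95% confidence interval for each factor (horizontal axis), as deposited (black circles) and with trends on GC content and genomic span removed (orange diamonds), filled where the limma adjusted p was below 0.05. Lmo2, Mef2b and Bcl11a are filled under both, Bcl6 and Irf8 under neither, and the other 5 only after removal of the trends.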

How the data were processed

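RNA of sorted splenic GC B cells was made into mRNA-seq libraries, per the labels' protocols. There are 4 libraries, and each has a table of gene, symbol, locus and FPKM, a value the authors computed, per the file headers; there were no read counts to use, and the absolute depth is unknown. The submitters' processing notes name Bowtie2 2.2.9, TopHat2 2.1.1 and mm10 without a role. The tool for FPKM, its annotation and its use of strand were not given in the sources used here. Genes absent from a table were taken as 0.

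IDs were looked up in GENCODE M21 on GRCm38, the assembly of mm10, for positions, span and GC content. Deposited loci can merge neighbouring genes, so annotated positions are given. The test was limma 3.58.1 (R 4.3.3) on log2(FPKM + 1), with genotype as the only term and a trend of the spread on expression, for genes averaging 1 FPKM or more, adjusted by Benjamini-Hochberg over all of them. Fold changes are on that scale, which understates changes of low genes. For a single gene, exact permutation of 2 against 2 libraries gives no two-sided p under 0.333, and the spread was therefore pooled across genes. The trends on GC content and span were natural splines with 4 degrees of freedom each. Other alternatives covered the pseudocount, filter, scaling, trend of the spread, replicate block, threshold and each library left out.

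The 10 factors and all lists of related genes were chosen with earlier results of these data known, so no list is tested or adjusted on its own. Named from each list were up to 5 called genes of smallest adjusted p, from each marker list those of highest level, and the 3 genes nearest to the factor of smallest p; others are marked. Some members of the lists are not reported here by name. Python 3.11.15 with pandas 2.3.3, numpy 2.4.6 and matplotlib 3.10.9 joined tables and drew figures.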

Additional observations from a re-analysis of the deposited data

How the results depend on the processing

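Having 2 libraries per group at unknown absolute depth limits the precision. The smallest change called among the factors was that of Mef2b, at -0.13 on the log2 scale. The factors called up and down, 1 and 2 in the report, numbered 0 and 0 with no filter on low values, 1 and 1 without a trend of the spread, 1 and 1 with the replicate block, 6 and 2 with GC content and span trends removed, 5 and 2 with the span trend alone removed, and 2 and 2 at an adjusted p below 0.10. Leaving out 1 library gave 1 and 1 each time, with Mef2b lost; the lone library of a group is then assumed to vary like the other group. Over all genes the calls, 725 up and 675 down, numbered 9 and 5 with no filter, 231 and 305 without a trend of the spread, 482 and 435 with the replicate block and 1345 and 1195 at an adjusted p below 0.10. They numbered 208 to 333 up and 186 to 267 down with 1 library left out, and 582 and 806 with median-of-ratios scaling. Genes of the 7 lists called, 19 up and 8 down of 96, numbered 0 and 0 with no filter, 4 and 2 without a trend, 12 and 4 with the replicate block, 5 to 6 and 1 to 2 with 1 library left out, and 14 down at 0.10. The cause of these shifts was not tested.

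Same-numbered ko and wt libraries did not deviate together (r = -0.083 over genes), so the numbers were not taken as pairs. With the replicate block Mef2b was the 1 factor that lost its call (adjusted p = 0.0623).

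Changes of sign touched factors near 0 and, among overlapping genes, Bach2os and Gm20388 (-0.205 as deposited). Bcl6 turned to -0.011 with median-of-ratios scaling, -0.014 with both trends removed, 0 with the GC trend, -0.002 with the span trend, and -0.026 and -0.027 without wt 1 or ko 2; its range with 1 library left out was -0.027 to 0.043. Irf8 turned to -0.012 with median-of-ratios scaling, -0.006 with quantile normalization, -0.032, -0.017 and -0.009 with both trends, GC or span removed, and lay between -0.005 (without wt 1) and 0.02 with 1 library left out. With both trends, GC or span removed, Bach2 turned to 0.162, 0.004 and 0.165 and Mef2c to 0.142, 0.054 and 0.108. With 1 library left out Mef2c ran from -0.055 to 0.036 (0.013 without wt 2), Ebf1 from -0.007 (without ko 1) to 0.086, and Bach2os from -0.015 (without wt 1) to 0.128, and Gm20388 was 0.156 and 0.197 with both trends or span removed.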
